A study of Mus musculus with 14 samples.

Results

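The subject here is the genotype by ConA interaction in mouse liver, that is, how far the response of each gene to concanavalin A (ConA) in Ythdf1-/- mice differed from its response in wild type (WT) mice. The interaction was computed for all 11327 of the 17656 listed genes that had a TPM (transcripts in each 1000000 of the library) of 1 or more in at least 3 of the 14 liver libraries. It is the change of mean log2(TPM + 1) from saline to ConA in Ythdf1-/- (KO) mice minus the same change in WT mice, so a positive value means a higher response in KO. Each library came from 1 mouse of 8 weeks of age: 3 WT and 3 KO mice received saline, and 4 WT and 4 KO mice received ConA at 8 mg/kg. Both were given into the tail vein, and livers were taken 8 h later. All mice were on a C57BL/6 background, and the KO mice carried a whole-body deletion made with CRISPR/Cas9, so that all cell types of the liver carried it. The listed TPM of Ythdf1 itself was 12.03, 13.9 and 13.3 in WT saline, 20.8, 18.4 and 18.6 in KO saline, 25.6, 21.4, 18.7 and 20.3 in WT ConA, and 25.9, 26.2, 15.5 and 21.3 in KO ConA. KO saline livers thus listed more Ythdf1 than every WT saline liver and the ConA groups overlapped, so the whole-gene value does not check the genotype labels. The interaction of Ythdf1 was -0.50 on the log2 scale (SE 0.23, adjusted p = 0.196, limma with Benjamini-Hochberg adjustment).

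YTHDF1 is a cytoplasmic reader of N6-methyladenosine (m6A), the most common internal mark of mRNA, and is known to bind methylated transcripts and act on their translation and turnover. ConA is a plant lectin that activates T cells in the liver, and the cytokines they release drive an acute-phase response in hepatocytes, recruitment of neutrophils and hepatocyte death. An interaction of genotype and treatment can arise in different ways. The genotypes may be alike in saline and part after ConA, or they may already differ in saline and meet after ConA, or they may differ in opposite directions in the 2 states. The interaction equals the KO minus WT difference in ConA minus the KO minus WT difference in saline, so each gene below is given with both.

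2 features of the libraries bear on every count. WT saline 2 and WT saline 3 were closer to each other than any other pair of replicates. Over all tested genes they differed by a median of 0.0793 in absolute log2 value, and the 17 other pairs by 0.128 to 0.397. Over the 100 genes most variable among the KO saline livers the median was 0.12, against 0.268 to 1.8 in the other pairs. That choice of genes favours large values in the KO saline pairs. WT ConA 3 and KO ConA 3 stood apart from their groups in overall scale, with log2 size factors of -0.323 and -0.244. Counts are therefore given over all 14 libraries and again with WT saline 2 and 3 averaged into 1. Fewer cells of a type and less RNA per cell cannot be told apart in whole liver. Hepatocyte markers were high in every library, with a sum of 10 genes between 54836 and 136978 TPM.

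The interaction passed an adjusted p of 0.05 in 541 genes, or 4.78% of those tested, by limma with Benjamini-Hochberg adjustment. The response was higher in KO for 299 of them (2.64%) and lower in KO for 242 (2.14%). With WT saline 2 and 3 averaged, all 541 kept their sign, but 28 genes (0.247%) passed, of which 19 (0.168%) were positive. Leaving out 1 library at a time gave between 23 calls (without WT saline 3) and 768 calls (without KO ConA 3), and 21 genes were called in all 14 of these fits. The count also fell to 28 without WT saline 2, to 35 without KO saline 1, to 58 without KO saline 2, to 82 without KO ConA 4 and to 185 without KO ConA 2. It was 465 without WT saline 1 and 528 without KO saline 3. The text below therefore leads with the genes that were also called after averaging.

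Most called interactions came from genotype differences of opposite sign in the 2 states. The KO minus WT difference pointed one way in saline and the other way in ConA in 506 of the 541 called genes (93.5%), against 59.2% of all tested genes. In the 299 positive genes the median log2 difference was -0.483 in saline and 0.516 in ConA, so the genes were lower in KO before and higher in KO after ConA. In the 242 negative genes the medians were 0.554 in saline and -0.356 in ConA. The saline groups did not overlap in 444 of the 541 genes (40.7% of all tested), and the ConA groups did not overlap in 287 (10.2% of all tested). Because the interaction is the difference between these values, this description repeats what the calls were made from. By the tests of the separate differences in the shared fit of all 14 libraries, 284 tested genes differed between genotypes in saline (2.51%) and 623 differed in ConA (5.5%). The order reversed when each state was fitted on its own libraries, with 1816 genes called in saline and 42 in ConA. These counts therefore do not show in which state genotype differences were more common. Among the 541, the shared fit called the saline difference in 130, the ConA difference in 180, both in 8 and neither in 239.

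In the positive genes the response was a rise in both genotypes in 178 of 299, a fall in both in 45, and a fall in WT with a rise in KO in 76. Among the 178, both responses were called in 115 and that of KO alone in 63. In the negative genes 162 of 242 fell in both genotypes, 22 rose in both, and 58 rose in WT and fell in KO. The median log2 response was 0.225 in WT and 1.22 in KO over the positive genes, and -0.296 in WT and -1.29 in KO over the negative genes. In both sets the size of the median response was thus larger in KO. A call in one genotype and not in the other is no test of a difference, which the interaction itself gives.

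**Figure D1:**
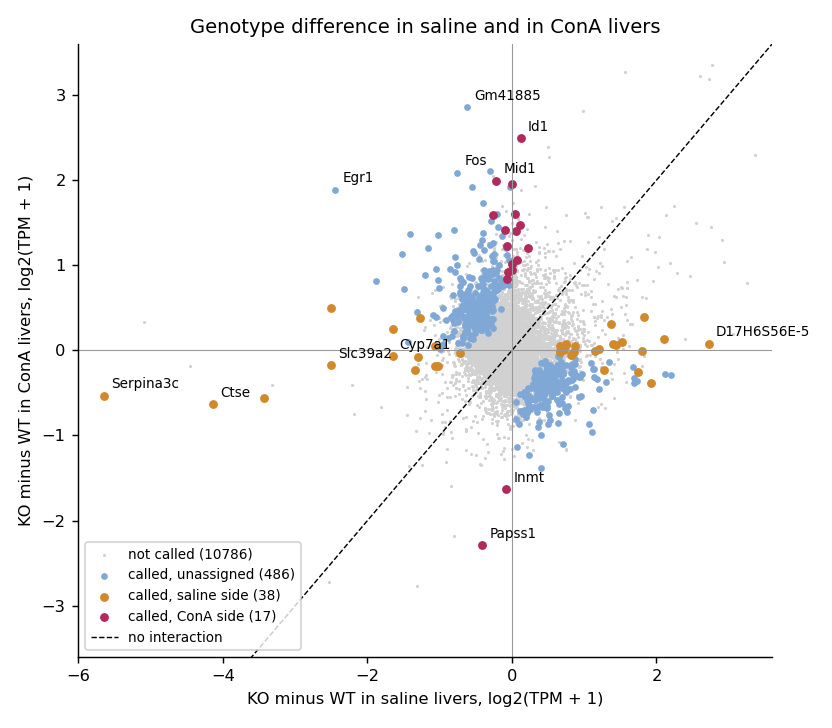
KO minus WT difference in saline livers (x axis) and in ConA livers (y axis), both as log2(TPM + 1), for the 11327 tested genes (one point each), with the 541 called interactions coloured by side. Called genes fill the 2 quadrants of opposite sign, and 17 genes of the ConA side lie along the vertical axis and 38 of the saline side along the horizontal axis.

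To tell apart interactions set by saline levels from those set by ConA levels, the sizes of the 2 genotype differences were compared in the same fit, through their sum. The ConA difference was the larger one in 17 called genes, of which 15 were positive and 2 negative, and these are called the ConA side. The saline difference was the larger one in 38 genes, 14 positive and 24 negative, called the saline side. In the other 486 genes neither difference was shown to be larger. By size alone, without a test, the ConA difference was at least 2 times the saline difference in 109 of the 541 genes, and the reverse held in 141.

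The ConA side holds genes on which the genotypes were close in saline and parted after ConA. Mid1, a microtubule-associated ubiquitin ligase, rose in both genotypes and rose further in KO. Its TPM was 2.47, 1.64 and 2.39 in WT saline, 1.64, 1.63 and 1.84 in KO saline, 18.5, 17.2, 15.9 and 30.5 in WT ConA, and 74.8, 87.8, 82.2 and 84.4 in KO ConA. Every KO ConA liver was above every WT ConA liver, while the saline groups overlapped. The log2 difference was -0.22 in saline and 2.0 in ConA, and the interaction was 2.21 (SE 0.26, adjusted p = 0.00107; 0.005 with the pair averaged). It was called without each library in turn, with adjusted p between 1.04e-05 and 0.00606.

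Papss1, which makes the sulfate donor used in sulfation, moved in opposite directions in the 2 genotypes. It rose in WT from 5.66, 4.94 and 5.92 TPM in saline to 9.73, 9.45, 15.1 and 12.6 in ConA. In KO it fell from 3.36, 3.95 and 4.41 TPM in saline to 1.83, 1.46, 1.45 and 1.55 in ConA. No group of one genotype overlapped the group of the other, and both responses passed the test, at 0.95 in WT and -0.93 in KO on the log2 scale. The interaction was -1.87 (SE 0.23, adjusted p = 0.00114; 0.0064 with the pair averaged), with a log2 difference of -0.41 in saline and -2.28 in ConA.

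The other ConA-side genes were less firmly held. Sgms1, a sphingomyelin synthase, had 4.29, 4.36 and 4.78 TPM in WT saline and, slightly lower without overlap, 3.45, 3.64 and 3.63 TPM in KO saline. It had 8.51, 8.73, 4.66 and 10.1 TPM in WT ConA and 23.9, 21.2, 21.8 and 37.0 TPM in KO ConA. Its interaction of 1.85 (SE 0.31) had an adjusted p of 0.0115, and of 0.046 with the pair averaged, where its side was no longer assigned. Id1, an inhibitor of helix-loop-helix factors that responds to BMP signals, fell in WT and rose in KO, with log2 responses of -1.12 and 1.25. It had 4.89, 4.72, 2.62 and 5.30 TPM in WT ConA and 23.5, 16.4, 39.5 and 43.4 TPM in KO ConA, while the saline groups overlapped between 7.21 and 16.5 TPM. The interaction of Id1 was 2.37 (SE 0.45, adjusted p = 0.0213), and it was lost with the pair averaged (2.25, adjusted p = 0.0823). Olr1, a receptor for oxidised LDL, was at or near 0 in all saline livers, with 7.59, 8.29, 3.32 and 2.97 TPM in WT ConA and 30.1, 19.3, 28.2 and 16.1 TPM in KO ConA. Inmt, a methyltransferase of indole amines, was 183, 177, 241 and 380 TPM in WT ConA and 57.0, 65.0, 113 and 74.3 TPM in KO ConA, from 986 to 1405 TPM in saline. The interactions of Olr1 (1.96, adjusted p = 0.0268), Slc16a6, a carrier of the monocarboxylate transporter family (1.56, adjusted p = 0.0334), and Inmt (-1.55, adjusted p = 0.0342) were lost with the pair averaged, at 0.0876, 0.1 and 0.102. Both responses were called in all 17 genes, and 9 of the 17 stayed on the ConA side with a pseudocount of 0.1 in place of 1.

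**Figure D2:**
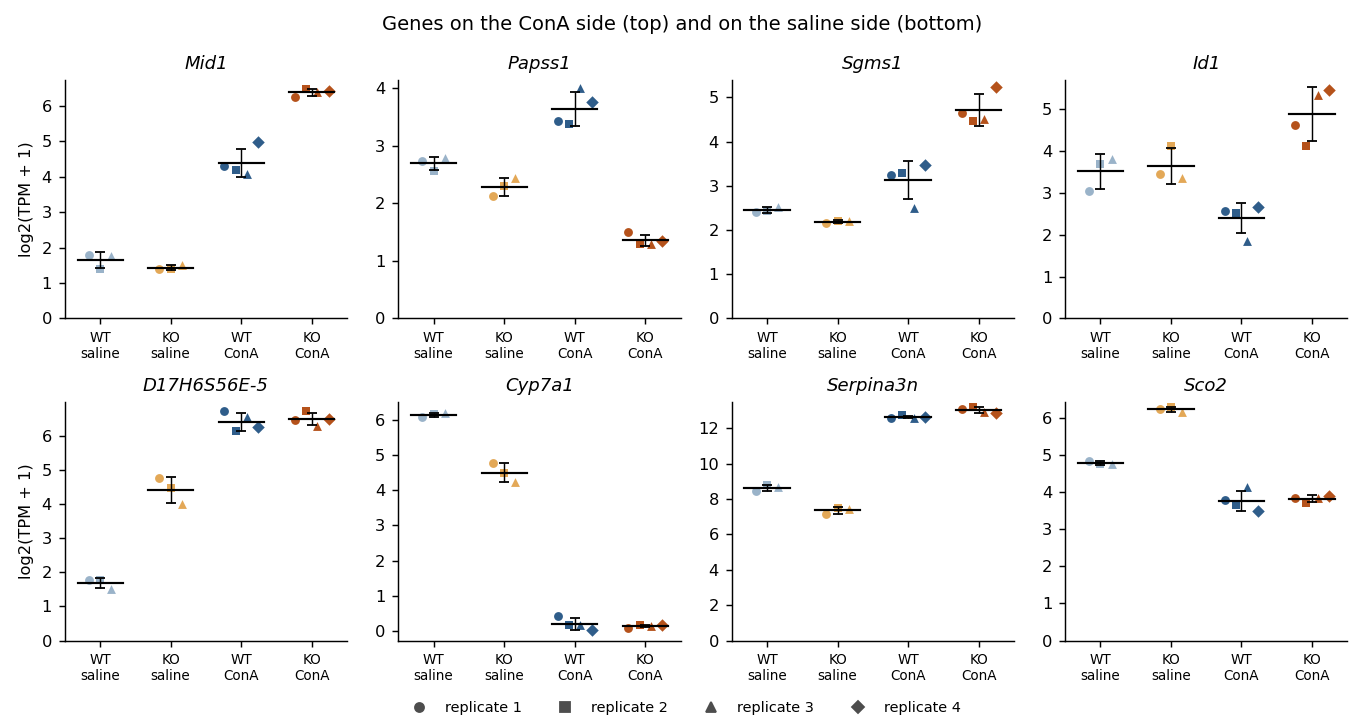
log2(TPM + 1) of each mouse (y axis; points, with the marker shape for the replicate number) and the group mean (line) with SD (bars), for 4 genes of the ConA side (Mid1, Papss1, Sgms1, Id1; top) and 4 of the saline side (D17H6S56E-5, Cyp7a1, Serpina3n, Sco2; bottom). In the top panels the ConA groups are apart and the saline groups lie close or overlap; in the bottom panels the saline groups are apart and the ConA groups overlap, except for Serpina3n, where they are close but apart.

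The saline side holds genes that differed between genotypes before ConA and met after it. D17H6S56E-5 had 2.42, 2.39 and 1.86 TPM in WT saline and 26.0, 21.1 and 14.97 TPM in KO saline. After ConA it had 104, 69.4, 92.1 and 75.0 TPM in WT and 86.1, 105, 77.2 and 88.9 TPM in KO. The log2 difference was thus 2.72 in saline and 0.08 in ConA, where the groups overlapped, and the interaction was -2.64 (SE 0.26, adjusted p = 0.000449; 0.00273 with the pair averaged).

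Cyp7a1, the rate-limiting enzyme of bile acid synthesis from cholesterol, was lower in KO saline livers and nearly silent in all ConA livers. It had 66.8, 70.7 and 72.5 TPM in WT saline and 26.3, 21.5 and 17.7 TPM in KO saline, against 0.02 to 0.34 TPM in the ConA livers of both genotypes. The interaction was 1.59 (SE 0.20, adjusted p = 0.00203), with a log2 difference of -1.65 in saline and -0.07 in ConA. On log2(TPM + 1) a gene this low in ConA can show little difference there, and with a pseudocount of 0.1 the interaction of Cyp7a1 was 1.46 with an adjusted p of 0.082. Both ConA means were under 1 TPM in 20 of the 38 saline-side genes, and 16 of the 38 stayed on the saline side with a pseudocount of 0.1. Slc39a2, a zinc importer, is another gene of this kind. It had 4.64, 13.4 and 13.2 TPM in WT saline, 1.0, 1.08 and 0.50 TPM in KO saline and at most 0.38 TPM in any ConA liver (interaction 2.34, SE 0.36, adjusted p = 0.00899).

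Sco2, a copper chaperone for cytochrome c oxidase, did not reach such low levels. It had 27.8, 26.1 and 25.9 TPM in WT saline and 74.8, 76.7 and 70.3 TPM in KO saline, and after ConA it lay between 10.2 and 16.6 TPM in WT and between 12.04 and 13.95 TPM in KO. The fall after ConA was therefore larger in KO, with log2 responses of -1.02 in WT and -2.40 in KO and an interaction of -1.38 (SE 0.19, adjusted p = 0.00395; 0.0234 with the pair averaged). Acot11, an acyl-CoA thioesterase, and Gm46620 were also higher in KO saline and overlapped in ConA. Their interactions were -1.5 (adjusted p = 0.0103) and -2.31 (adjusted p = 0.0114), and both passed with the pair averaged, where their side was no longer assigned.

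In 3 genes of the saline side, WT ConA 4 stood apart from the other WT ConA livers. Serpina3c had 78.8, 67.9 and 65.1 TPM in WT saline and 0.47, 0.50 and 0.30 TPM in KO saline. In ConA it had 7.34, 9.68, 9.24 and 192 TPM in WT and 17.9, 17.3, 10.2 and 9.47 TPM in KO, so that WT ConA 4 was the only WT ConA liver above the WT saline level, while all KO ConA livers were above all KO saline livers. The interaction of Serpina3c was 5.12 (SE 1.09, adjusted p = 0.028), and 6.20 without WT ConA 4 (adjusted p = 4.77e-08). WT ConA 4 was likewise the highest WT ConA liver for Ctse, the protease cathepsin E (5.51 TPM against 0.56 to 0.71), and for Ren1, renin (6.17 TPM against 0 to 0.11). Without it their interactions were 4.01 (adjusted p = 5.03e-05) and 3.55 (adjusted p = 1.04e-05), against 3.51 and 2.87 over all libraries. Serpina3c, Serpina3f, Serpina3m and Serpina3n are close copies in 1 cluster, and Ren1 and Ren2, Pnp and Pnp2, Rnaset2a and Rnaset2b, and Acot1 and Acot3 are close pairs, so their reads may have been divided between copies.

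The acute-phase proteins, which hepatocytes secrete in inflammation, were lower in KO saline livers where they were called. Of 31 tested members, 9 were called (29.0%, against 2.64% positive calls over all tested genes) and all 9 were positive, with a median interaction of 0.233 over the list against 0.14 over all tested genes. After rescaling, 5 were called and the median was 0.124, against 0.00944 over all tested genes. In all 9 every KO saline liver was below every WT saline liver, and in 6 of the 9 every KO ConA liver was above every WT ConA liver. The 9 were picked by calls made from these same differences. The shares over all tested genes (27.7% and 6.16%) are therefore no baseline for these counts. Serpina3n, a secreted serine protease inhibitor, had 346, 435 and 412 TPM in WT saline and 141, 179 and 172 TPM in KO saline. It rose to 6071, 6771, 6212 and 6235 TPM in WT ConA and to 8797, 9300.0, 7587 and 7412 TPM in KO ConA. Its interaction was 1.66 (SE 0.18, adjusted p = 0.000792), with a log2 difference of -1.27 in saline and 0.38 in ConA. It was on the saline side, but unassigned with the pair averaged (adjusted p = 0.005 for the interaction).

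Serpina3m had 477, 546 and 538 TPM in WT saline, 165, 169 and 222 TPM in KO saline, 1054, 1152, 744 and 1535 TPM in WT ConA and 1816, 1785, 1875 and 1708 TPM in KO ConA. Its interaction was 2.22 (SE 0.26, adjusted p = 0.00107), and the groups were apart in both states. Serpina3f, of the same cluster but not on the list, went from 2.85, 4.07 and 4.76 TPM in WT saline and 1.01, 1.25 and 1.06 TPM in KO saline to between 252 and 416 TPM in WT ConA livers and between 549 and 670 TPM in those of KO (interaction 2.08, SE 0.24, adjusted p = 0.00107). The serum amyloid gene Saa1 reached between 29535 and 35401 TPM in WT ConA livers and between 34310 and 36585 TPM in those of KO, so the ConA groups overlapped at a log2 difference of 0.10. Its interaction of 1.54 (SE 0.40, adjusted p = 0.0445) came with a saline difference of -1.44 and was lost with the pair averaged (adjusted p = 0.0933). The other called members were the fibrinogen chains Fga (1.16) and Fgg (1.03), the IL-1 receptor antagonist Il1rn (2.01), Saa2 (1.12), and Itih3 (0.80) and Itih4 (0.67), heavy chains of the inter-alpha-trypsin inhibitors. With the pair averaged, 2 of the 9 remained, Serpina3n and Serpina3m, and 2 remained without KO saline 1.

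Immediate early factors, which are induced within minutes of growth factor or stress signals, held more positive calls than the other gene lists used. Of 22 tested members 12 were called (54.5%, against 2.64% positive calls over all tested genes), all with a higher response in KO, and the median interaction was 1.09 against 0.14 over all tested genes. After rescaling the libraries the median was 0.962, against 0.00944 over all tested genes, but 4 of the 22 were called. That is a lower share than the 5 of 17 ERK feedback genes. The median log2 difference over the 22 was -0.19 in saline and 0.823 in ConA. Egr1, a zinc finger factor downstream of ERK, had 25.1, 16.6 and 18.2 TPM in WT saline and 2.89, 2.71 and 2.76 TPM in KO saline. In ConA livers it had 19.9, 18.3, 11.5 and 20.4 TPM in WT and 34.3, 26.6, 117 and 175 TPM in KO. The groups were apart in both states and in opposite order, and the response was -0.19 in WT (adjusted p = 0.763) and 4.15 in KO on the log2 scale. The interaction of Egr1 was 4.34 (SE 0.68, adjusted p = 0.0103; 0.0354 with the pair averaged), and it was called without each library in turn.

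Maff, a small MAF factor, had 7.02, 9.41 and 8.00 TPM in WT saline, 3.33, 3.43 and 6.62 TPM in KO saline, 32.5, 35.1, 26.4 and 30.2 TPM in WT ConA and 51.0, 57.8, 86.2 and 80.6 TPM in KO ConA. Its groups were apart in both states, with an interaction of 1.89 (SE 0.31, adjusted p = 0.0114; 0.0455 with the pair averaged). Fos, a subunit of AP-1, had 1.13 to 2.11 TPM in WT saline, 0.39 to 0.55 TPM in KO saline, 2.70, 3.98, 1.87 and 4.14 TPM in WT ConA and 8.06, 8.02, 33.0 and 31.1 TPM in KO ConA. Its interaction of 2.85 (SE 0.59, adjusted p = 0.0279) was lost with the pair averaged (adjusted p = 0.0851). The other called members were Atf3 (1.80), Nr4a1 (1.64), Zfp36 (1.53), Klf6 (1.29), Junb (1.16), Egr2 (1.11), Klf10 (1.08), Jun (1.04) and Myc (0.94), and none of these passed with the pair averaged. KO ConA 3 and KO ConA 4 were the 2 highest KO ConA livers in 10 of the 12 called members, and 2 of the 12 remained called without KO ConA 4. The median interaction of the list stayed between 0.994 and 1.19 when single libraries were left out. In 9 of the 12 every KO ConA liver was above every WT ConA liver, and in 7 every KO saline liver was below every WT saline liver. The 12 were picked by calls made from these same differences. The shares over all tested genes (6.16% and 27.7%) are therefore no baseline for these counts.

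Since these genes moved together, the 250 bases before their RefSeq transcript starts (build GRCm38.p6) were searched on both strands for the motifs of factors known to act on them. The search covered the CArG box bound by SRF, the cyclic AMP response element TGACGTCA, the AP-1 site (TGANTCA with C or G at N), the STAT site (TTC and GAA with 3 bases between) and the forkhead site TGTTTAC. RefSeq windows were matched for 9113 of the 11327 tested genes, giving 11636 windows, and for 17 of the 22 immediate early factors. A CArG box was found in 6 of the 23 windows of these 17 genes (26.1%), which belong to 3 genes, against 1.11% of all windows, 2.85% of the windows of positive genes and 1.1% of those of negative genes. The cyclic AMP response element was found in 8.7% of immediate early windows and 2.46% of all windows. AP-1 sites were found in 3.45% of all windows, 6.01% of positive and 2.93% of negative windows, and in no immediate early window. STAT sites were found in 6.04%, 8.23% and 3.3%, and forkhead sites in 2.51%, 2.53% and 1.47%, of all, positive and negative windows. Windows of 1 gene overlap and genes were chosen by their calls, so these shares are a description. The windows of Egr2, at 2 of its starts, with the CArG box in capitals, and of Maff, with the cyclic AMP response element in capitals, are shown as examples of such matches among the called members. The Egr2 windows lie on the plus strand at chr10:67537316-67537565 and chr10:67537619-67537868, each with its match starting 72 bases before the start, and that of Maff on the plus strand at chr15:79347270-79347519, with its match starting 29 bases before the start.
Egr2, upstream start: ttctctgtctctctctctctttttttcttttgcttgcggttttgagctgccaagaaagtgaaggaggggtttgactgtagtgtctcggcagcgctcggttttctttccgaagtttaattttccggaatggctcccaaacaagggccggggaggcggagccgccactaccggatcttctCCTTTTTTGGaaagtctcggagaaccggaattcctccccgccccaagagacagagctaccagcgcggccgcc
Egr2, downstream start: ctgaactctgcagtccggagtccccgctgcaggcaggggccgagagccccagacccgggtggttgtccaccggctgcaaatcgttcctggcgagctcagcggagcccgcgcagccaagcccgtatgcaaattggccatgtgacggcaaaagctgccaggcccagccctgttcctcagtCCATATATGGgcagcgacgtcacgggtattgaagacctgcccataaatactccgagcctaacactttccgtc
Maff: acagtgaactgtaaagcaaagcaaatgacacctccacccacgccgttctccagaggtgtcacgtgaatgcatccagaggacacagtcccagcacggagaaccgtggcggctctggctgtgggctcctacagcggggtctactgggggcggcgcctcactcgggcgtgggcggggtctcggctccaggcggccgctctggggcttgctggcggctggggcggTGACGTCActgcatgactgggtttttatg

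Genes of the ERK feedback list were called in the same direction. The list holds phosphatases of MAP kinases and Sprouty genes, and not all of them are specific to ERK. Of 17 tested members 5 were called (29.4%, against 2.64% positive calls over all tested genes), all positive, with a median interaction of 0.851 over the list against 0.14 over all tested genes. After rescaling 5 were called and the median was 0.744, against 0.00944 over all tested genes. Dusp6, a phosphatase that acts on ERK, fell in WT and rose in KO: it had 22.6, 28.6 and 32.03 TPM in WT saline, 14.7, 17.6 and 15.2 TPM in KO saline, 13.9, 17.6, 6.05 and 18.6 TPM in WT ConA and 24.7, 21.6, 25.3 and 39.4 TPM in KO ConA. The groups were apart in both states, in opposite order, and the interaction was 1.77 (SE 0.41, adjusted p = 0.0334). Dusp5 (1.51), the list's ConA-side member, Dusp16 (1.71), Dusp1 (1.77) and the Sprouty gene Spry4 (1.29) were the other calls. None of the 5 passed with the pair averaged, and none was called without KO saline 1.

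Further genes called after averaging were lower in KO saline livers and had a positive interaction. Arrdc3 and Txnip, alpha-arrestins of which Txnip restrains glucose uptake, fell after ConA in WT, while their response in KO did not pass the test. Arrdc3 had 55.1, 43.2 and 44.7 TPM in WT saline, 9.80, 23.7 and 16.8 TPM in KO saline, 8.60, 6.68, 3.69 and 6.41 TPM in WT ConA and 9.71, 11.3, 19.6 and 20.5 TPM in KO ConA. Its interaction was 2.65 (SE 0.43, adjusted p = 0.0114), with responses of -2.77 in WT and -0.11 in KO (adjusted p = 0.759 for the latter). Txnip had 94.0, 84.8 and 87.8 TPM in WT saline, 34.9, 43.5 and 53.03 TPM in KO saline, 26.1, 17.6, 14.1 and 24.9 TPM in WT ConA and 35.8, 28.2, 50.01 and 34.1 TPM in KO ConA (interaction 1.85, SE 0.31, adjusted p = 0.0115). In both genes every KO liver was below every WT liver in saline and above every WT liver in ConA.

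Igfbp1, a secreted binding protein of insulin-like growth factors, had 53.5, 83.4 and 84.4 TPM in WT saline and 17.95, 29.2 and 35.4 TPM in KO saline. It rose to 571, 861, 536 and 1126 TPM in WT ConA and to 1220, 1552, 2563 and 2729 TPM in KO ConA, with an interaction of 2.78 (SE 0.46, adjusted p = 0.0114; 0.046 with the pair averaged). Slc2a1, the glucose transporter GLUT1, had 7.37, 8.64 and 8.95 TPM in WT saline, 6.44, 4.96 and 6.65 TPM in KO saline, 35.6, 33.8, 23.6 and 36.5 TPM in WT ConA and 58.2, 70.4, 106 and 94.3 TPM in KO ConA (interaction 1.71, SE 0.28, adjusted p = 0.0115). It belongs to the list of hypoxia genes, of which 4 of 19 tested were called, all positive, with Egln3 (1.68), Ldha (1.13) and Pgk1 (1.08) as the others and a list median of 0.563. The share of 21.1% stands beside 2.64% positive calls over all tested genes. With the pair averaged Egln3 (adjusted p = 0.0746), Ldha (0.105) and Pgk1 (0.109) were lost, and none of the list was called without WT saline 3. Foxa3, a forkhead factor of hepatocytes, had 33.8, 44.1 and 40.3 TPM in WT saline, 18.1, 18.5 and 16.9 TPM in KO saline, 82.7, 100, 65.1 and 82.4 TPM in WT ConA and 110, 98.5, 113 and 115 TPM in KO ConA. Its ConA groups overlapped, and the interaction was 1.5 (SE 0.20, adjusted p = 0.00222; 0.014 with the pair averaged). Wee1, a kinase that holds back entry into mitosis (interaction 1.71, adjusted p = 0.00785), Rnaset2b, a ribonuclease (1.45, adjusted p = 0.00395), and Pnp2, a purine nucleoside phosphorylase (3.0, adjusted p = 0.0106; on the saline side, but unassigned with the pair averaged), also passed without each library in turn. The remaining genes called after averaging were Prelid2 (2.70), of mitochondrial lipid transfer, Serpinb8 (1.90), an intracellular serpin, Bcl7c (-2.0), a subunit of SWI/SNF remodelling complexes, Bex4 (-1.47) and Pfdn6 (-1.25), a subunit of the chaperone prefoldin.

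**Figure D3:**
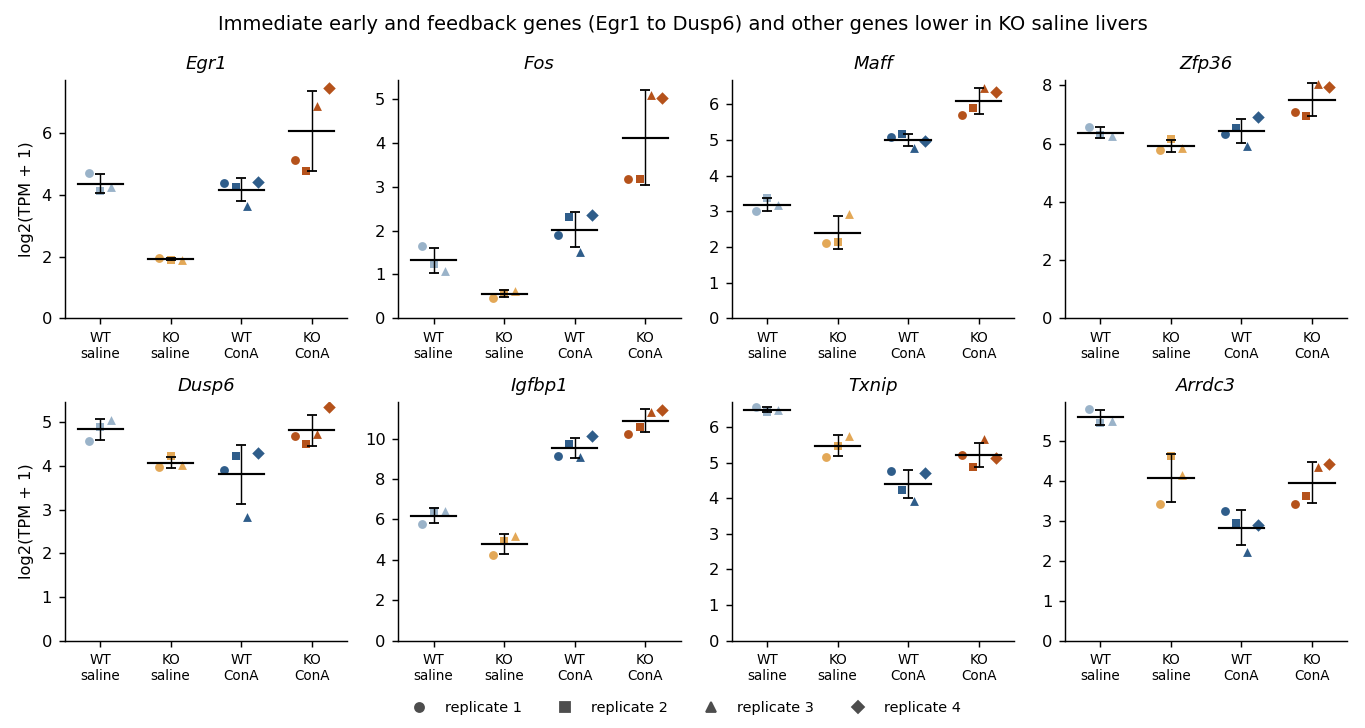
log2(TPM + 1) of each mouse (y axis; points, with the marker shape for the replicate number) and the group mean (line) with SD (bars) for 8 called genes in which neither genotype difference was shown to be larger (Egr1, Fos, Maff, Zfp36, Dusp6, Igfbp1, Txnip, Arrdc3). KO saline livers lie below WT saline livers and KO ConA livers above WT ConA livers in each panel, and KO ConA 3 and 4 are the highest KO ConA livers in each panel but that of Txnip.

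The list with the most negative calls was oxidative phosphorylation, the subunits of the mitochondrial respiratory chain and ATP synthase. Of 52 tested members 10 were called negative (19.2%, against 2.14% over all tested genes) and 1 positive, and the median interaction was -0.335, or -0.499 after rescaling, against 0.14 and 0.00944 over all tested genes. The median log2 difference over the list was 0.199 in saline and -0.146 in ConA. Ndufa5, a subunit of complex I, had 327, 297 and 298 TPM in WT saline, 484, 489 and 388 TPM in KO saline, 150, 153, 164 and 148 TPM in WT ConA and 105, 120, 145 and 137 TPM in KO ConA. Its groups were apart in both states, with an interaction of -0.84 (SE 0.18, adjusted p = 0.028). The other negative calls were Ndufb7 (-1.14), Uqcrq (-1.12), Ndufa8 (-1.0), Ndufa3 (-0.99), Ndufs7 (-0.96), Atp5e (-0.96), Ndufs8 (-0.91), Ndufa6 (-0.72) and Ndufc1 (-0.56), and Atp5b, the beta subunit of ATP synthase, was called positive (0.95). None of the 11 calls remained with the pair averaged, after rescaling or without KO saline 1, and 10 of the list were called after correction for GC content and length. Ndufb4, a complex I subunit that was not on the list, was called after averaging. It had 309, 301 and 308 TPM in WT saline, 530, 544 and 416 TPM in KO saline, 151, 147, 208 and 167 TPM in WT ConA and 110, 108, 107 and 109 TPM in KO ConA, apart in both states (interaction -1.31, SE 0.18, adjusted p = 0.00387; 0.0213 with the pair averaged).

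The called genes of each direction differed in transcript features. Negative genes had a median GC content of 55.1% and a median length of 1537 bases, positive genes 49.5% and 2981.5 bases, and all tested genes 49.6% and 3233 bases. After each library was corrected for GC content and length, 243 of the 294 positive genes with a value and 187 of 239 negative genes were still called, among 906 calls in all. The part of library preparation in the calls was not tested.

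Genes of lipid and drug metabolism gave 0 to 3 calls a list, beside 2.64% positive and 2.14% negative calls over all tested genes. Fasn, the fatty acid synthase, had 48.8, 43.1 and 42.8 TPM in WT saline and 105, 72.0 and 87.4 TPM in KO saline, with the ConA groups overlapping between 27.8 and 52.5 TPM (interaction -1.25, SE 0.24, adjusted p = 0.0206; 0.0766 with the pair averaged). In fatty acid oxidation 3 of 32 tested were called, all positive: Pdk4, the pyruvate dehydrogenase kinase (1.95), Acot1 (1.68) and Etfdh (1.14), or 9.38% of the list, with a median of 0.469. None of the 3 passed with the pair averaged, and none of the list was called without KO ConA 4. In bile acid synthesis and transport 2 of 28 were called, Cyp7a1 and the exporter Abcc3 (0.76), or 7.14%, with a median of 0.402. Abcc3 was lost with the pair averaged (adjusted p = 0.127). Of 33 cytochrome P450 genes, Cyp2e1 (1.17) and Cyp4a10 (1.26) were positive and Cyp1a1 (-0.68) negative, and none of the 3 passed with the pair averaged. Cyp1a1 reached 1 TPM only in KO saline (1.06 to 1.93 TPM), so it passed the filter through that group alone. After rescaling no P450 gene was called positive and 2 were called negative. In the cholesterol biosynthesis list none of 25 was called by limma (median -0.228; 9 had an unadjusted p under 0.05), and in the m6A regulators none of 16 (median 0.239; 5 under 0.05). The ribosomal proteins had 3 positive calls and 1 negative among 55 (median -0.165).

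Among the cytokine and immune genes that mark the ConA response, calls were scattered over several lists. Ifng, the interferon secreted by activated T and NK cells, had at most 0.14 TPM in saline, 3.86, 2.46, 1.63 and 1.01 TPM in WT ConA and 6.05, 6.28, 12.1 and 5.02 TPM in KO ConA. The ConA groups were apart, with a log2 difference of 1.38 called in the shared limma fit (adjusted p = 0.00973). The interaction of 1.41 (SE 0.39) missed the threshold at an adjusted p of 0.0503, which ranged from 0.0273 to 0.128 when single libraries were left out. Tnf had an interaction of -0.24 (SE 0.27, adjusted p = 0.588) and the chemokine Cxcl1 one of 0.95 (SE 0.41, adjusted p = 0.165), with overlapping ConA groups for both. Il6 was not tested, since it reached at most 0.59 TPM. Of the interferon-gamma genes 2 of 27 were called, the factor Irf1 (1.06) and the receptor chain Ifngr2 (1.14), with a list median of 0.555. Of the NF-kB targets 2 of 26 were called (Sele, 1.01; Tnip1, 0.96), of the IL-6 and STAT3 genes 1 of 20 (Stat3, 0.89), of the chemokines 1 of 25 (Cxcl3, 0.95), and of the class II genes 1 of 6 (H2-Ab1, 1.3). All were positive, beside 2.64% of all tested genes called positive, and none passed with the pair averaged. These shares rest on 1 or 2 genes a list. Cxcl3 reached 1 TPM only in KO ConA (1.21 to 2.03 TPM, against 0.27 to 0.48 TPM in WT ConA), so it passed the filter through that group alone.

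Of the 49 lists, 29 had a called member, 19 of them in the positive direction only, 6 in the negative direction only and 4 in both. The lists held 2 to 55 tested genes, and 4.78% of all tested genes were called. Whether more lists held a call than lists drawn at random would was not tested. Summed levels of cell markers are given beside these results, and their part in them was not tested. In saline the 10 Kupffer cell markers, those of the resident macrophages, summed to between 130 and 227 TPM for WT and between 82.9 and 135 TPM for KO. In ConA they summed to between 19.7 and 65.2 TPM for WT and between 15.3 and 46.3 TPM for KO. A sum follows the most abundant markers, and the median log2 difference over the 10 was -0.579 in saline and 0.256 in ConA. Their median interaction was 0.801, with no call (1 of 10 had an unadjusted p under 0.05). For the 14 sinusoidal endothelial markers the sums in saline were between 32.4 and 49.2 TPM for WT and, without overlap, between 60.9 and 99.4 TPM for KO, and in ConA between 25.5 and 59.1 TPM for WT and between 30.2 and 73.6 TPM for KO, with a median of -0.567 and 1 negative call (Ptprb, -0.68). The 11 erythroid and platelet markers summed to between 1627 and 3872 TPM in WT saline livers and between 2774 and 17149 TPM in those of KO, where KO saline 1 was the highest, and their median of -1.0 was -0.508 without KO saline 1, with no call and 4 of 11 under an unadjusted p of 0.05. The sums of the 9 cholangiocyte markers, of the bile duct lining, were apart between genotypes in both states. In saline they lay between 55.8 and 68.1 TPM for WT and between 90.8 and 104 TPM for KO. In ConA they lay between 21.8 and 35.3 TPM for WT and between 41.2 and 59.5 TPM for KO. The median log2 difference over the tested members was 0.185 in saline and 0.362 in ConA. Of the 9, 7 were tested, with a median interaction of 0.202, no call and 1 under an unadjusted p of 0.05. The stellate cell and matrix genes had median log2 differences of 1.01 in saline and 0.463 in ConA and a median interaction of -0.467, or -0.226 with the pair averaged (25 tested, no call, 4 under an unadjusted p of 0.05). Their sums overlapped in saline, at 271 to 345 TPM for WT and 308 to 414 TPM for KO. In ConA they overlapped too, at 401 to 691 TPM for WT and 611 to 880 TPM for KO. The 19 neutrophil markers summed to between 10.6 and 19.4 TPM in saline livers, and in ConA to between 349 and 613 TPM for WT and between 449 and 1028 TPM for KO (17 tested, median 0.566, no call, 4 with an unadjusted p under 0.05). Of 17 T and NK cell markers 7 were tested, with no call and none under an unadjusted p of 0.05, and the sums in ConA lay between 15.4 and 32.2 TPM for WT and between 22.3 and 40.5 TPM for KO.

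**Figure D4:**
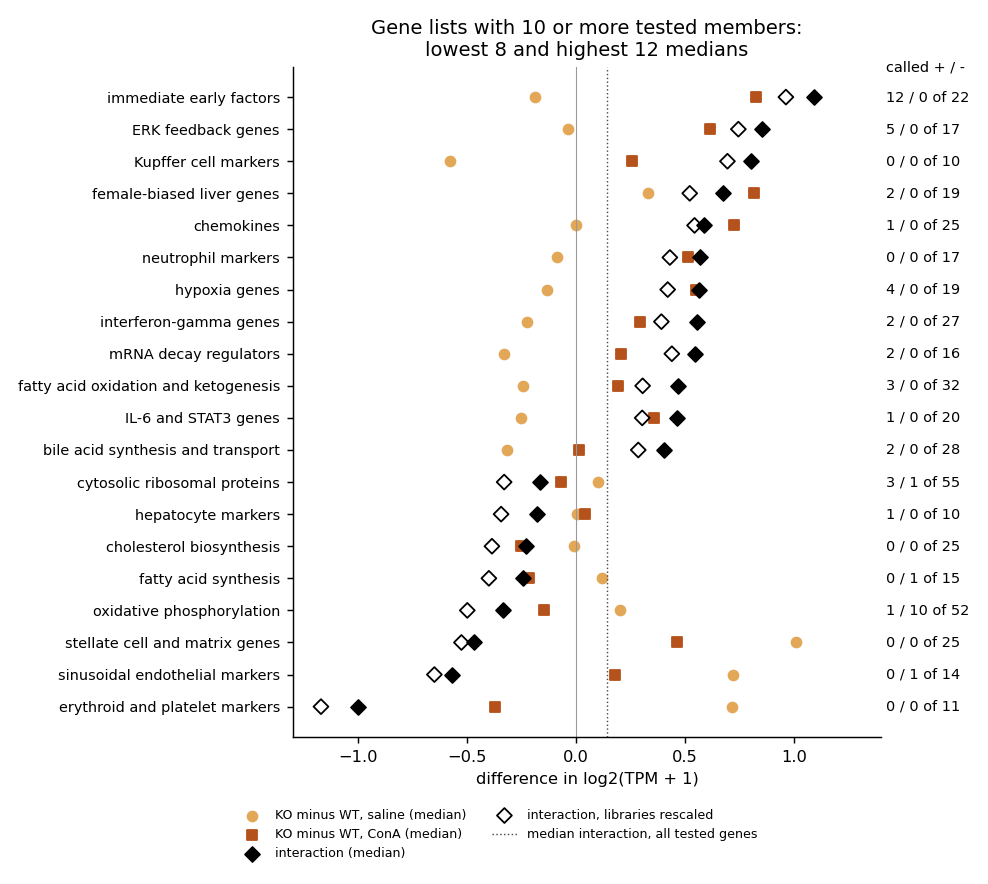
Medians over the tested genes of 20 gene lists, the lowest 8 and highest 12 of those with at least 10 tested genes, as differences in log2(TPM + 1) (x axis). Circles show KO minus WT in saline, squares KO minus WT in ConA, filled diamonds the interaction and open diamonds the interaction after rescaling; the dotted line is the median interaction of all tested genes (0.14). Immediate early factors (1.09) and ERK feedback genes (0.851) lie highest, and erythroid and platelet markers (-1.0) lowest.

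**Figure D5:**
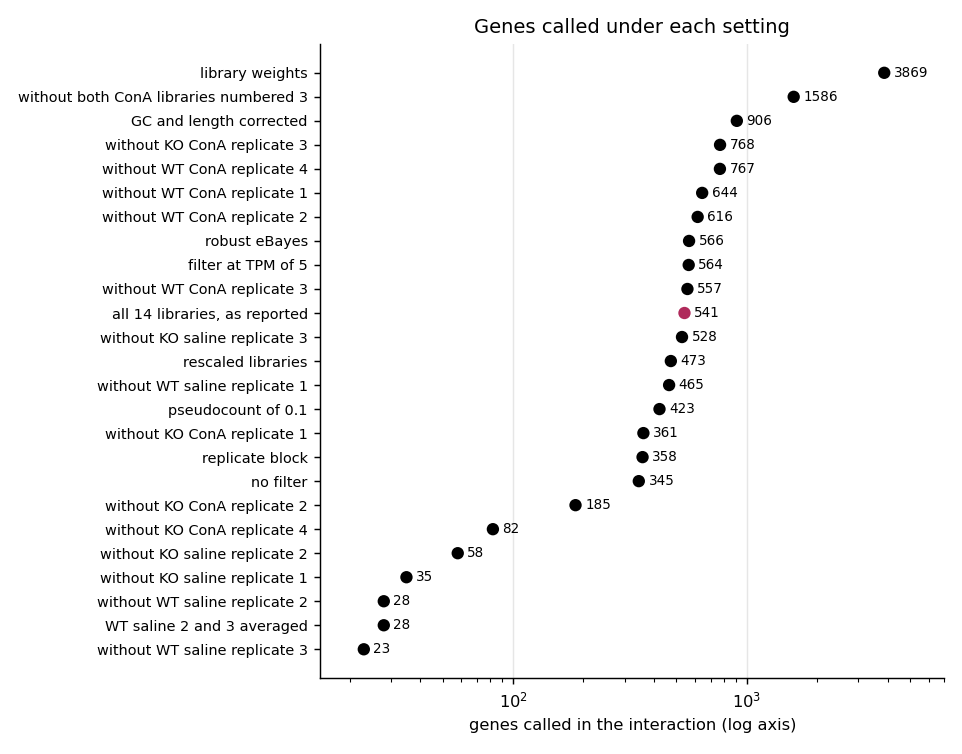
Number of genes called in the interaction (log axis) under each processing alternative and without each library in turn, beside the 541 calls over all 14 libraries. The counts run from 23 without WT saline 3 to 3869 with library weights.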

How the data were processed

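Each library was 1 mouse liver sequenced with 50-base single-end reads on a BGISEQ-500. The authors deposited 1 table of TPM values per mouse; read counts were not used here, so the depth is unknown. The submitters' processing notes name Bowtie2, RSEM 1.3.1 and GRCm38.p6, while the study's methods name STAR, HTSeq and edgeR, and which of these made the TPM could not be settled. TPM are shares of 1000000, so a rise of abundant transcripts lowers the others.

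Genes with a TPM of 1 or more in at least 3 libraries were tested on log2(TPM + 1) with limma 3.58.1 in R 4.3.3 (eBayes with trend, all 14 libraries, no covariate) and Benjamini-Hochberg adjustment over all tested genes, called under 0.05. Fold changes of low genes are understated on this scale. The edgeR test of the study needs counts and could not be used. The side of an interaction was taken from the sum of the genotype differences: the interaction times this sum equals the squared ConA difference minus the squared saline difference, so a called sum of the same sign puts the gene on the ConA side and one of the opposite sign on the saline side. Lists were described by counts and medians.

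Named genes had a highest group mean of at least 5 TPM: up to 5 each way per side, 3 each way among the unassigned, the 2 called members with the smallest p in each list, and Ythdf1, Ifng, Tnf, Il6, Cxcl1, Saa1, Fos, Egr1 and Dusp6. The other genes called with WT saline 2 and 3 averaged, and further called members of lists, were named after their values were seen. The members and lists were chosen with earlier results of these data known. Alternatives were another pseudocount, filters, rescaled libraries, library weights, robust eBayes, the averaged pair, a replicate block and leaving out libraries; the correction for GC content and transcript length was added after seeing the data. The fit was tested on simulated data with independent libraries and, for each gene, the same spread in every group. That test therefore did not cover a pair as close as WT saline 2 and 3, or a spread that differs between groups. The study's methods, not the labels, describe the samples of a group as independent biological replicates. Tables were handled in Python 3.11.15 with pandas 2.3.3, and figures drawn with matplotlib 3.10.9.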

Additional observations from a re-analysis of the deposited data

Results flagged for a closer look

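Of the named genes, 76 had an interaction that passed the test, that is, their response to ConA differed between KO and WT mice. Their interactions are given here on the log2 scale (KO response minus WT response), without explanation. On the ConA side they were 2.37 for Id1, 2.21 for Mid1, 1.96 for Olr1, 1.85 for Sgms1, 1.56 for Slc16a6, 1.51 for Dusp5, 0.92 for Myl12a, -1.87 for Papss1 and -1.55 for Inmt. On the saline side they were 5.12 for Serpina3c, 3.51 for Ctse, 3.0 for Pnp2, 2.87 for Ren1, 2.34 for Slc39a2, 1.90 for Serpinb8, 1.66 for Serpina3n, 1.59 for Cyp7a1, -2.64 for D17H6S56E-5, -2.31 for Gm46620, -2.0 for Bcl7c, -1.98 for Tceanc2, -1.80 for Mgp, -1.5 for Acot11, -1.38 for Sco2 and -1.18 for Gadd45g.

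Among genes assigned to neither side, the signalling and inflammation genes had interactions of 4.34 (Egr1), 2.85 (Fos), 1.89 (Maff), 1.77 (Dusp6), 1.71 (Dusp16), 1.53 (Zfp36), 1.49 (Zfp36l1), 2.22 (Serpina3m), 2.08 (Serpina3f), 1.54 (Saa1), 0.96 (Tnip1), 0.89 (Stat3), 1.14 (Ifngr2), 1.06 (Irf1), 0.67 (H2-T23) and 1.3 (H2-Ab1). The metabolic genes had interactions of 2.78 (Igfbp1), 2.65 (Arrdc3), 1.85 (Txnip), 1.71 (Slc2a1), 1.68 (Egln3), 2.36 (Acot3), 1.68 (Acot1), 1.45 (Abcd2), 1.14 (Etfdh), 1.17 (Cyp2e1), 1.26 (Cyp4a10), 0.76 (Abcc3), 1.22 (Fbp1), -1.35 (Sds), -1.25 (Fasn), -1.36 (Mgst3) and -1.20 (Gstp1). The mitochondrial, ribosomal and proteasome genes had -0.84 (Ndufa5), -0.96 (Ndufs7), -1.31 (Ndufb4), 0.82 (Rpl5), -0.70 (Rpl27), -0.70 (Psmb6) and -0.71 (Psmb5). The others had 3.48 (Gm41885), 2.70 (Prelid2), 2.13 (Actg1), 1.71 (Wee1), 1.5 (Foxa3), 1.45 (Rnaset2b), -2.49 (Ptgds), -2.39 (Cebpe), -2.10 (Ppp1r14a), -1.47 (Bex4) and -1.25 (Pfdn6).

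In 5 of 160 groups of 4 mice the highest or lowest mouse lay far from the rest of its group by Dixon's test; chance alone marks about 1 in 20 such groups. WT ConA 4 was far above the other WT ConA mice for Serpina3c (192.26 TPM), Ctse (5.51 TPM) and Ren1 (6.17 TPM). WT ConA 3 was far below them for Ifngr2 (16.76 TPM) and Wee1 (0.48 TPM).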

How the results depend on the processing

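The 541 interaction calls became 28 with WT saline 2 and 3 averaged, 345 with no filter, 906 after GC and length correction, 3869 with library weights, 1586 without both ConA libraries numbered 3, 260 when a log2 interaction of at least 1 in size was also required, and 23 to 768 without single libraries. The 17 calls of the ConA side became 2 with the pair averaged, 42 after GC and length correction, 222 with library weights, 9 with a pseudocount of 0.1, 49 without both libraries numbered 3, 109 by size alone, and 2 to 41 without single libraries. The 38 calls of the saline side became 4 with the pair averaged, 16 with a filter at 5 TPM, 563 with library weights, 17 with a pseudocount of 0.1, 71 without both libraries numbered 3, 141 by size alone, 24 with the size requirement, and 4 to 73 without single libraries. Fitted on their own libraries, the genotype differences called were 1816 in saline (284 in the shared fit) and 42 in ConA (623). Averaging and leaving out libraries use fewer samples. With 1 saline library left out, the interaction calls were 465, 28 and 23 without WT saline 1, 2 and 3. They were 35, 58 and 528 without KO saline 1, 2 and 3. Why the counts moved was not tested. Rescaling the libraries moved the median interaction over all tested genes from 0.14 to 0.00944, with 473 calls, of which 315 were among the 541. No interaction of a named gene changed sign under any alternative run, while medians of lists near 0 did, as for the m6A regulators after GC and length correction (-0.05). Over 19 pairs of libraries with the same replicate number the correlation of deviations ran from -0.189 to 0.405 and was over 0.1 in 8. Between WT and KO in the same treatment it was 0.342, 0.229 and -0.00215 for saline 1, 2 and 3. For ConA 1, 2, 3 and 4 it was -0.00709, 0.129, 0.405 and 0.115. Whether the numbers mark samples handled together was not tested. The fit with the replicate block called 358 genes. TPM carry no read counts, so differences of genes near 1 TPM or below are limited by an unknown depth.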
